A study of Mus musculus with 8 samples.

Results

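The genes described here are 30 members of the cholesterol synthesis pathway and its transcriptional control, chosen by name from the 55536 gene rows measured in alphaTC6 cells. They are 5 genes for the sterol-regulated factors and their regulators, 7 for the mevalonate and isoprenoid steps, 11 for the sterol steps, 1 sterol carrier and 6 for fatty acid synthesis. Members were matched by gene symbol, and all 30 had enough counts to be tested. They and the other lists below were chosen with earlier results of these data known. Their shares set beside those of all genes are therefore descriptive.

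alphaTC6 is a mouse line of glucagon-producing pancreatic alpha cells, and all libraries are labelled wild type (WT). Cells were reverse transfected for 48 h with RNAiMax Lipofectamine, carrying a scramble siRNA as control or an siRNA pool aimed at Klf4, the gene of a zinc finger transcription factor. An siRNA is a short RNA duplex that directs the breakdown of a matching transcript. The study asked which genes Klf4 regulates in these cells. Batch 1 held scramble replicates 1 and 2 and Klf4 siRNA replicates 1, 2 and 4, and batch 2 held scramble replicates 3 and 4 and Klf4 siRNA replicate 3. The labels do not say what a batch was, the line is a transformed one, and the extraction text speaks of isolated islets although every sample is labelled as the line. Nothing in the labels says whether same-treatment libraries came from separate cultures beyond the words "biological replicates" in the design, so p-values measure the spread between these libraries.

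The libraries held 45954151 to 64185987 counts. Klf4 itself had 39.2, 35.1, 46.3 and 46.8 CPM (counts scaled to a common library size) in scramble replicates 1 to 4 and 12.5, 11.5, 19.8 and 18.8 CPM in Klf4 siRNA replicates 1 to 4. The groups did not overlap, and the difference was -1.33 ± 0.17 (log2 fold change ± standard error, as for all log2 changes, edgeR adjusted p = 0.0083). Without scramble replicate 1 this adjusted p was above the threshold, at 0.052, and in batch 1 alone it was 0.104. The 5 alpha cell markers reported here were present (Gcg, Irx1, Irx2, Ttr and Pcsk2), with a summed level of 4773 to 12882 CPM in scramble and 4609.8 to 11587 CPM in Klf4 siRNA libraries. Of 5 beta cell markers, Ins1, Ins2 and Pdx1 had 0 counts in every library, and Mafa and Iapp together had at most 3.85 CPM. The summed fibroblast markers, mostly Col1a2, ran from 18.6 to 21.1 CPM in scramble and from 19.3 to 27.0 CPM in Klf4 siRNA libraries. Summed delta cell, endothelial and immune markers were at most 0.057, 0.437 and 3.16 CPM.

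Cells make cholesterol from acetyl-CoA through mevalonate, isoprenoid phosphates, squalene and lanosterol. When membrane sterol is low, the escort protein SCAP carries the SREBP transcription factors from the endoplasmic reticulum to the Golgi, where proteases release their active part, and INSIG proteins hold SCAP back when sterol is plentiful. SREBPs, with the CCAAT-binding factor NF-Y as a partner, switch on nearly every enzyme of the path and many of fatty acid synthesis, so these genes are known to move together with sterol supply. In islet cells this supply bears on the membranes of secretory granules.

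Promoters were searched for the letters of 4 elements on both strands, in windows of 250 bases before to 50 after each annotated start in the RefSeq table (GRCm38.p6). The table held windows for 24 of the 30 genes, leaving out Fdps, Fdft1, Sqle, Scd1, Scd2 and Stard4. At least 1 CCAAT, the NF-Y letters, was found for 20 of the 24 genes (83.3%), against 41.1% of the 27025 symbols in the table. Counted by window, this was 21 of 32 (65.6%) against 37.4% of 32851. An SREBP element, TCACNCCAC, was found for 1 of the 24 genes, Hmgcs1 (4.17%, against 1.44% of all symbols). The E-box CACGTG was found for 5 of the 24 genes (20.8%, against 8.09% of all symbols), and a KLF element, CCACACCC or CCACGCCC, also for 5 (20.8%, against 9.75%). Windows of 1 gene can overlap, as those of Scap do, and then hold the same letters. None of these letters overlapped another of the 4 kinds in the windows shown. A match is a run of letters and not a shown binding site.

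Shown are the 250 bases before the start of Hmgcs1, which had the SREBP letters and the largest log2 fold change of the members, and of the 4 members that rose after Klf4 siRNA. Capitals mark the letters of the elements in either orientation, so that ATTGG is CCAAT on the other strand. Each runs 5′ to 3′ on the strand of its gene.
Hmgcs1 (chr13:119690101-119690350, plus strand): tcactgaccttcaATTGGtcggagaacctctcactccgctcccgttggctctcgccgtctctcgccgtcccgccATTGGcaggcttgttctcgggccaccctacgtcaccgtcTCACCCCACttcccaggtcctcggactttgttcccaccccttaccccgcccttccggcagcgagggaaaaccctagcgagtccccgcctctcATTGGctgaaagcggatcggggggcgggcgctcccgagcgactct
Mvk (chr5:114444019-114444268, plus strand): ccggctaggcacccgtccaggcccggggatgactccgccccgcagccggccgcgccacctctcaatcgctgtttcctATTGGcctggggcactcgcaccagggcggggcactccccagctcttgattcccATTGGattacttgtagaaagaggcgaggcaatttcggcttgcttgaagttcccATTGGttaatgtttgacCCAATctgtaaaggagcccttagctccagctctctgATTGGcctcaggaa
Lss (chr10:76531355-76531604, plus strand): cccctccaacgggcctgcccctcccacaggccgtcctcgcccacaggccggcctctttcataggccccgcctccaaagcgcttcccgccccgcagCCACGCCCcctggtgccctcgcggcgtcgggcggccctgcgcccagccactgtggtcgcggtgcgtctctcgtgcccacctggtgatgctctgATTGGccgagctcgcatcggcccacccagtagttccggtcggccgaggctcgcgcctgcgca
Hsd17b7 (chr1:169969206-169969455, minus strand): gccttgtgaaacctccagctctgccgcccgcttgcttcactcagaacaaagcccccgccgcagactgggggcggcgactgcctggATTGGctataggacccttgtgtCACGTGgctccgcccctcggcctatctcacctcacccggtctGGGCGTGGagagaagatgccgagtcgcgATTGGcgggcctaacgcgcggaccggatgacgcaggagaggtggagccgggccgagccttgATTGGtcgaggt
Sc5d (chr9:42264301-42264550, minus strand): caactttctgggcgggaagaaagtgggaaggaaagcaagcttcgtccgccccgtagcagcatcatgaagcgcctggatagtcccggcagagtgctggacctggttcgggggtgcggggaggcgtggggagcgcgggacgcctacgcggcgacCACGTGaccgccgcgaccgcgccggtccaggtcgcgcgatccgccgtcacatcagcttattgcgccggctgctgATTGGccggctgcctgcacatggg

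The Hmgcs1 window held the SREBP letters with their first base 137 bases before the start and 4 CCAAT, the last of them past the start and outside the stretch shown. That of Mvk held 5 CCAAT and that of Hsd17b7 held 3, with 1 E-box and 1 KLF element in the latter. Lss had 1 CCAAT and 1 KLF element, and Sc5d had 1 CCAAT and 1 E-box.

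Levels were compared between genes per kilobase of merged exons, in scramble libraries. Stard4, a cytosolic carrier of cholesterol, was highest at 166.1 ± 18.9 CPM per kilobase (SD, n = 4), followed by Scd2, of a fatty acid desaturase, at 153.2 ± 23.0 and Acly, which makes cytosolic acetyl-CoA from citrate, at 126 ± 3.88. Each of these overlapped its neighbour in this order between libraries. Fasn (fatty acid synthase) had 77.5 ± 4.63 CPM per kilobase, Insig1 76.3 ± 13.4 and Srebf2 63.2 ± 5.60, and here too neighbours overlapped. Srebf2, the gene of the SREBP that favours sterol enzymes, was above Srebf1, that of the SREBP that favours fatty acid enzymes, which had 11.9 ± 1.47. Most synthesis enzymes lay between the 5.92 ± 0.183 of Acaca and the 49.8 ± 7.22 of Cyp51. The lowest were Tm7sf2 (2.53 ± 0.129) and Fdps (1.61 ± 0.460). Of the Fdps exon bases, 26.7% are shared with Gm43738, an annotation on the same strand that had 0 counts in every library. For Tm7sf2, 12.1% are shared with Vps51 on the same strand. What the counting did with shared reads was not given in the sources used here.

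**Figure D1:**
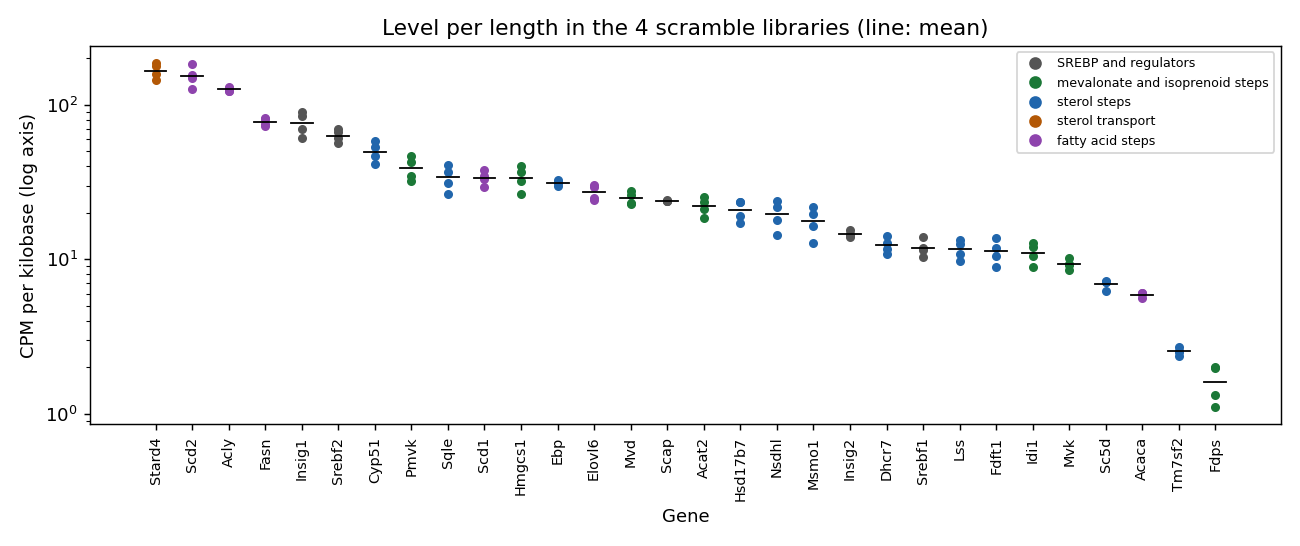
Level of each of the 30 genes in CPM per kilobase of merged exons (vertical log axis) in the 4 scramble libraries; points are libraries, lines are means and colours are roles. Stard4, Scd2 and Acly stand at 126 to 166.1 CPM per kilobase, and Fdps is lowest at 1.61.

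After Klf4 siRNA, 4 of the 30 genes rose (13.3%, against 4.88% of all 16333 genes tested) and 0 fell (against 6.81%), at a Benjamini-Hochberg adjusted p under 0.05 in edgeR's quasi-likelihood test with batch as a term. All 4 were enzymes between mevalonate and cholesterol: Mvk, Lss, Hsd17b7 and Sc5d. The rises were small, from 1.10-fold to 1.17-fold. At an unadjusted p under 0.05 there were 13 members, 10 higher (against 11.3% of all genes) and 3 lower (against 12.7%). Without batch in the fit 0 members passed (against 2.50% of all genes in either direction). The DESeq2 Wald test with batch gave 9 higher (against 4.78%) and 1 lower (against 6.43%). Beside the 4 named, those higher were Insig1, Hmgcs1, Fdps, Fdft1 and Fasn, and the lower one was Scap. The median log2 fold change of the 30 was 0.04, against 0.00 for all genes tested. Since the members were chosen with earlier results of these data known, these shares are descriptions and not tests of the set.

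By role, the 7 mevalonate and isoprenoid genes all had positive log2 fold changes (median 0.13) and 1 rose (14.3%, against 4.88% of all genes). Of the 11 sterol genes, 9 were positive (median 0.14) and 3 rose (27.3%, against the same 4.88%). Over all 16333 genes tested, 8172 were positive. Among the 5 regulators (median -0.08) and 6 fatty acid genes (median 0.01), and for Stard4, 0 passed the threshold. At an unadjusted p under 0.05 these held 3, 2 and 0 genes, where 23.9% of all genes passed in either direction. For the mevalonate and sterol genes together, 16 of 18 were positive with a median of 0.13. Without scramble replicate 1 this was 11 of 18 with a median of 0.06, and 2 of the 18 rose (against 1.99% of all genes). The median of all 30 was then -0.01. In batch 1 alone 17 of the 18 were positive (median 0.18). Without batch in the fit 13 were (median 0.037), and 13 with a term for replicate number in place of batch (median 0.045). Within batch 2 (1 Klf4 siRNA library) the difference was negative for Acat2, Pmvk, Mvd, Fdps, Cyp51, Tm7sf2, Msmo1, Nsdhl, Ebp and Dhcr7. It ran from -0.249 to -0.015 in these and was positive in the other genes of the 18.

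A count that does not use the fit gave the members whose Klf4 siRNA libraries each lay above every scramble library of their batch. There were 9 such members of 30 (against 11.4% of all genes): Insig1, Hmgcs1, Mvk, Fdft1, Lss, Hsd17b7, Sc5d, Fasn and Acly. For 2 members, Scap and Elovl6, each lay below (against 13.0% of all genes). In batch 2 this rests on 1 Klf4 siRNA library.

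**Figure D2:**
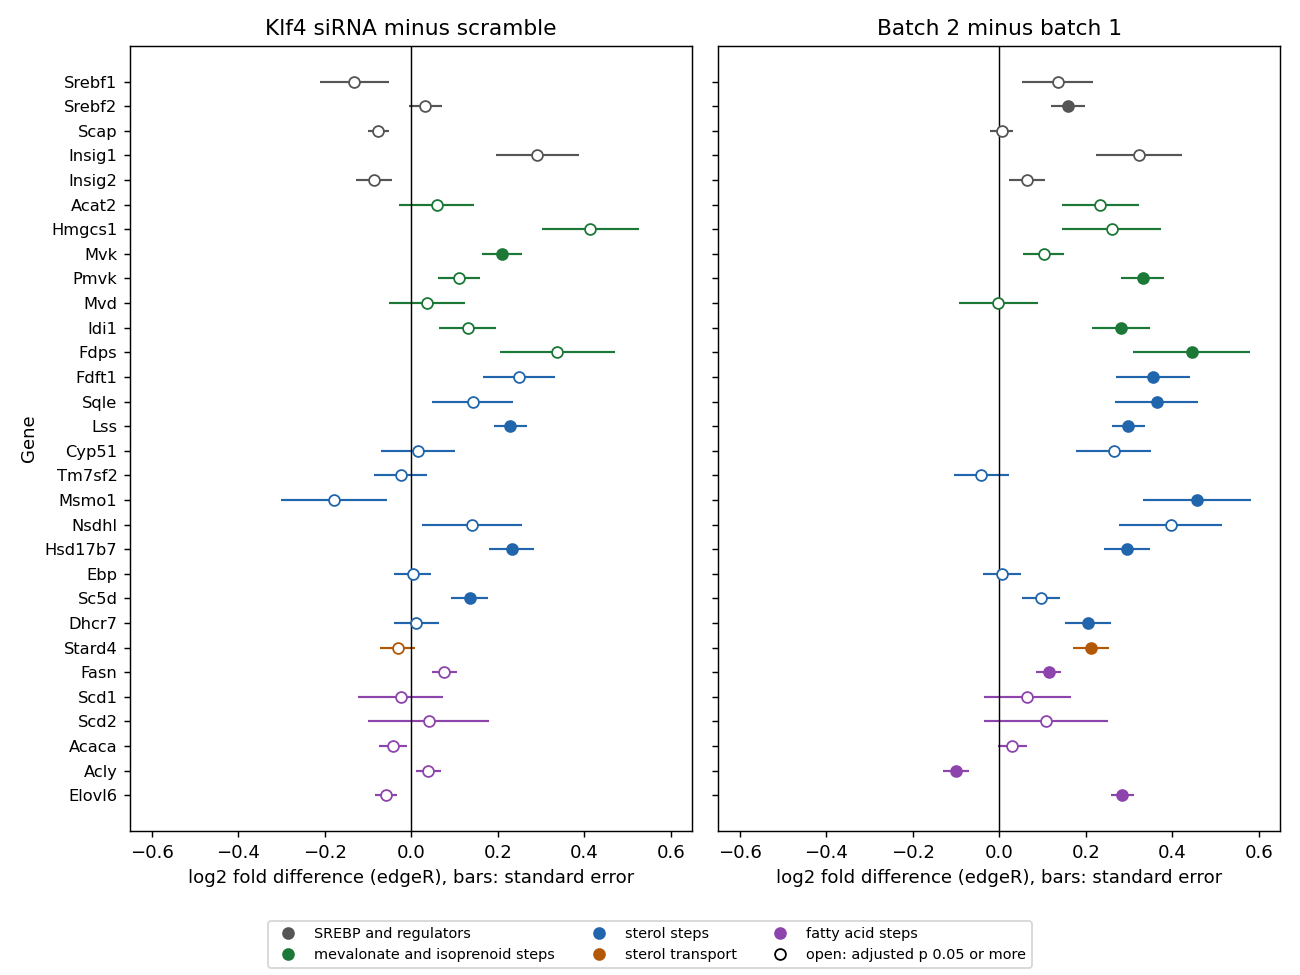
Log2 fold difference (horizontal axes, edgeR) of each gene for Klf4 siRNA minus scramble (left) and batch 2 minus batch 1 (right), with standard errors as bars, colours for roles and filled points for an adjusted p under 0.05. On the left 4 points are filled, all above 0, and on the right 13 are filled above 0 and 1 below.

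Lss (lanosterol synthase, which closes squalene epoxide into the first sterol) had the smallest adjusted p. It lies on chromosome 10, 76531588 to 76557138 (GRCm38, plus strand). Its levels were 105, 117, 136 and 145 CPM in scramble replicates 1 to 4 and 129, 135, 157 and 135 CPM in Klf4 siRNA replicates 1 to 4. The treatments overlapped over both batches but not within either. The log2 change was 0.23 ± 0.04 (edgeR adjusted p = 0.00041), or 0.27 within batch 1 and 0.16 within batch 2. Lss passed the threshold in each of the 8 fits without 1 library, but not without batch in the fit (0.15, adjusted p = 0.590). Nor did it pass with a term for replicate number in place of batch (0.155, edgeR adjusted p = 0.263).

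Mvk encodes mevalonate kinase, the first kinase of the path (chromosome 5, 114444269 to 114460591, plus strand). It had 22.7, 25.1, 24.6 and 27.2 CPM in scramble replicates 1 to 4 and 27.5, 28.1, 29.5 and 27.9 CPM in Klf4 siRNA replicates 1 to 4, so every Klf4 siRNA library was above every scramble library. The log2 change was 0.21 ± 0.05 (edgeR adjusted p = 0.0042), with 0.22 in batch 1 and 0.19 in batch 2. Without scramble replicate 1 the adjusted p was 0.063.

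Hsd17b7, whose product reduces the keto group left after demethylation of sterols (chromosome 1, 169949535 to 169969241, minus strand), had 88.2, 97.1, 120.2 and 119 CPM in scramble replicates 1 to 4. In Klf4 siRNA replicates 1 to 4 it had 107, 112, 130.1 and 122 CPM. The treatments were apart within each batch, and both scramble libraries of batch 2 were above 2 of the Klf4 siRNA libraries of batch 1. The log2 change was 0.23 ± 0.05 (edgeR adjusted p = 0.015), with 0.29 in batch 1 and 0.12 in batch 2. Without scramble replicate 2 the adjusted p was 0.0503.

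Sc5d, a sterol desaturase near the end of the path (chromosome 9, 42251595 to 42264256, minus strand), had 30.3, 34.5, 34.5 and 35 CPM in scramble replicates 1 to 4 and 35.2, 36.8, 38 and 34.8 CPM in Klf4 siRNA replicates 1 to 4. Scramble replicate 1 was the lowest library, and scramble replicate 4, of batch 2, was above Klf4 siRNA replicate 4, of batch 1. Its log2 fold change of 0.13 ± 0.04 had an edgeR adjusted p of 0.042, close to the threshold. The adjusted p exceeded it in 5 of the 8 fits without 1 library, up to 0.318 at a log2 fold change of 0.09 without scramble replicate 1. Without scramble replicate 3, Klf4 siRNA replicate 1, 2 or 3 it was 0.069, 0.068, 0.097 and 0.148.

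Hmgcs1, which makes HMG-CoA ahead of mevalonate, had the largest log2 fold change of the 30 genes and did not pass the threshold in the main edgeR fit. It passed in 2 of 18 alternative fits. These were the DESeq2 Wald test with batch (adjusted p = 0.00097) and edgeR with a term for replicate number in place of batch (adjusted p = 0.0486). It had 121, 147, 169 and 184 CPM in scramble replicates 1 to 4 and 176, 200, 203 and 204 CPM in Klf4 siRNA replicates 1 to 4. The Klf4 siRNA libraries of each batch were above its scramble libraries and the scramble libraries alone ran from 121 to 184 CPM. The log2 change was 0.41 ± 0.11 (edgeR adjusted p = 0.088), at 0.53 within batch 1 and 0.21 within batch 2. Of its exon bases, 12.1% are shared with Gm48342 on the opposite strand, which had at most 34 counts in a library.

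**Figure D3:**
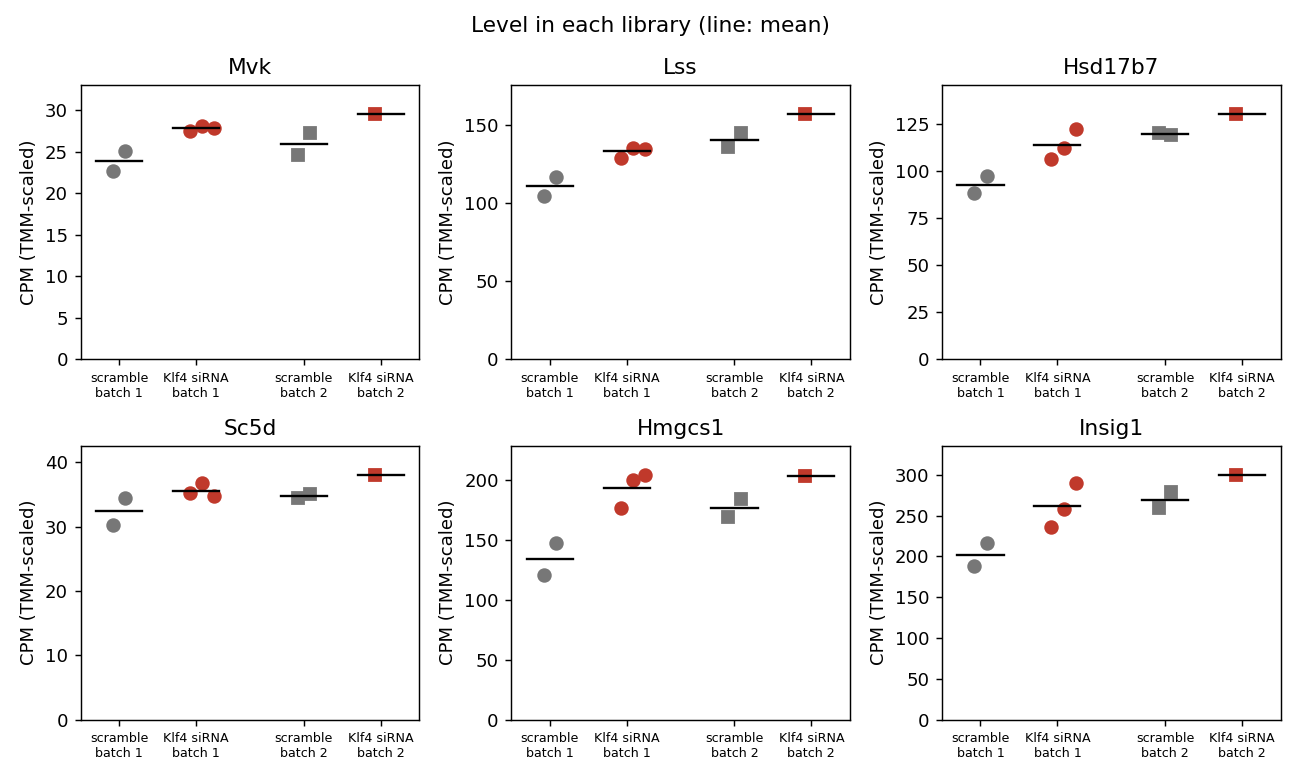
CPM (vertical axes, from 0) of Mvk, Lss, Hsd17b7, Sc5d, Hmgcs1 and Insig1 in each library, with scramble in grey, Klf4 siRNA in red, circles for batch 1, squares for batch 2 and lines for means. In each panel the Klf4 siRNA libraries of a batch lie above the scramble libraries of that batch, as for Mvk with 27.5 to 29.5 against 22.7 to 27.2 CPM.

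The other mevalonate genes did not pass in the main edgeR fit. Of 18 alternative fits, Fdps and Pmvk each passed in 5, Idi1 in 2, and Acat2 and Mvd in 0. In batch 1 alone the edgeR adjusted p was 0.0039 for Fdps and 0.0237 for Pmvk. Fdps, the farnesyl diphosphate synthase gene, had 4.67, 5.55, 8.36 and 8.44 CPM in scramble and 6.58, 8.39, 8.16 and 7.88 CPM in Klf4 siRNA replicates 1 to 4. All 3 Klf4 siRNA libraries of batch 1 were above its scramble libraries and that of batch 2 was below, with log2 differences of 0.57 and -0.04 (fit 0.34, standard error 0.13, edgeR adjusted p = 0.153). Pmvk and Idi1, the next kinase and the isomerase of the path, had log2 fold changes of 0.11 and 0.13 (edgeR adjusted p = 0.187 and 0.269). Acat2 (the cytosolic thiolase) and Mvd (the decarboxylase) were at 0.06 and 0.04. Acat2 has a close copy, Acat3, with 25 to 43 counts in a library, and reads of the pair could be split between them.

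Among the other sterol genes, Fdft1 (squalene synthase) had 37.5, 44.2, 50.3 and 57.9 CPM in scramble and 45.4, 51.8, 60.9 and 52.7 CPM in Klf4 siRNA replicates 1 to 4, a log2 change of 0.25 ± 0.08 (edgeR adjusted p = 0.119). Its libraries were apart within each batch. Of its exon bases, 18.3% are shared with Ctsb on the opposite strand, which had 7151 to 12673 counts in a library, and whether the counting used strand is not given in the sources used here. Sqle, the squalene epoxidase gene, was at 0.14 and Nsdhl, a sterol dehydrogenase gene, also at 0.14 (edgeR adjusted p = 0.450 and 0.564). Msmo1, the methyl sterol oxidase gene, had the lowest value of the members, -0.18 ± 0.12 (edgeR adjusted p = 0.476). It had 77.9, 101, 120 and 134 CPM in scramble and 70.5, 86.8, 107 and 86.5 CPM in Klf4 siRNA replicates 1 to 4, and the treatments overlapped in batch 1. Cyp51, Tm7sf2, Ebp and Dhcr7 were between -0.02 and 0.02, with adjusted p-values from 0.871 to 0.975.

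Of the regulators, Scap had the tightest values. It had 179.6, 179, 178 and 178 CPM in scramble replicates 1 to 4 and 169, 169.7, 171 and 167 CPM in Klf4 siRNA replicates 1 to 4, so the treatments did not overlap. The log2 change was -0.08 ± 0.02 (edgeR adjusted p = 0.053), just above the threshold. Its exon overlap of 13.2% is with 5830462I19Rik on the opposite strand, which had 13 to 34 counts in a library. Insig1, itself a known SREBP target, had 188, 217, 259.8 and 279 CPM in scramble and 235.5, 258, 299.6 and 289.8 CPM in Klf4 siRNA replicates 1 to 4. Each Klf4 siRNA library was above the scramble libraries of its batch, at a log2 change of 0.29 ± 0.10 (edgeR adjusted p = 0.140).

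Insig2 had 48.5, 50, 50.8 and 53.8 CPM in scramble and 46.7, 50.5, 48.2 and 43.8 CPM in Klf4 siRNA replicates 1 to 4, which overlapped (log2 fold change -0.09, edgeR adjusted p = 0.206). Srebf1 had 58.6, 64.4, 66.3 and 78.3 CPM in scramble and 57.3, 63.1, 59.4 and 58.0 CPM in Klf4 siRNA replicates 1 to 4. Its log2 fold change was -0.13 ± 0.08 (edgeR adjusted p = 0.397), and scramble replicate 4 was the highest library. Srebf2 had 407, 436, 475.5 and 497 CPM in scramble and 415, 454, 473 and 462 CPM in Klf4 siRNA replicates 1 to 4, which gave 0.03 ± 0.04 (edgeR adjusted p = 0.687). The table gives 1 row per gene, so the isoforms of Srebf1 were not told apart.

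None of the 6 fatty acid genes passed the threshold in edgeR, with 2 of them at an unadjusted p under 0.05 (Fasn and Elovl6). Fasn was at 0.08 (standard error 0.03, edgeR adjusted p = 0.094) and Elovl6, an elongase gene, at -0.06 (standard error 0.03, 0.177). Acly, Scd2, Scd1 and Acaca (acetyl-CoA carboxylase) ran from -0.04 to 0.04. The standard errors were 0.10 for Scd1 and 0.14 for Scd2, desaturase genes that are also similar in sequence. Stard4 was at -0.03 (edgeR adjusted p = 0.727).

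For the interaction of treatment and batch, 0 of the 30 genes passed (edgeR, smallest adjusted p 0.999), and 0 of all 16333 genes did (smallest 0.712). At an unadjusted p under 0.05 there were 3 members, Fdps (0.0021), Pmvk (0.027) and Ebp (0.027), where 3.31% of all genes passed. Batch 2 held 1 Klf4 siRNA library, and the size of difference that could pass was not tested. The interaction term, the change by treatment in batch 2 minus that in batch 1, was negative for every member but Scap and Elovl6. It ran from -0.63 for Fdps to 0.03 for Scap. So the change by treatment was lower in batch 2 for nearly all members, which rests on that 1 library. The matching share of all genes was not counted.

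More of these genes passed the threshold for batch than for treatment. In the same fit, 13 of the 30 were higher in batch 2 (43.3%, against 16.8% of all genes tested) and 1 was lower (against 15.9%), at an edgeR adjusted p under 0.05. The median difference of the 30 was 0.21 on the log2 scale, against 0.00 for all genes. Those higher were Srebf2, Pmvk, Idi1, Fdps, Fdft1, Sqle, Lss, Msmo1, Hsd17b7, Dhcr7, Stard4, Fasn and Elovl6, and the lower one was Acly. The mevalonate and sterol genes together had 9 of 18 higher with a median of 0.27.

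Elovl6 had the smallest adjusted p for batch, with 155, 160.4, 149, 153 and 152 CPM in batch 1 (scramble replicates 1 and 2, Klf4 siRNA replicates 1, 2 and 4) and 194, 189.7 and 184 CPM in batch 2. The batches did not overlap, at a log2 difference of 0.28 ± 0.03 (edgeR adjusted p = 4.5e-08). For Lss the difference was 0.30 (standard error 0.04, edgeR adjusted p = 7.41e-06) and for Pmvk 0.33 (0.05, 0.00017). For Pmvk too the batches did not overlap, with at most 68.5 CPM in batch 1 and at least 73.1 CPM in batch 2.

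Stard4 had 803, 882, 805, 893 and 856 CPM in the same order in batch 1 and 990.1, 1037 and 936 CPM in batch 2, a log2 difference of 0.21 (standard error 0.04, edgeR adjusted p = 0.0011). Hsd17b7 and Fasn followed at 0.30 and 0.11 (edgeR adjusted p = 0.0014 and 0.0049). The largest difference was that of Msmo1, 0.46 ± 0.12 (edgeR adjusted p = 0.043). Acly was lower in batch 2 by 0.10 (edgeR adjusted p = 0.012), a call that was lost without Klf4 siRNA replicate 3.

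Among the regulators, Srebf2 was higher in batch 2 by 0.16 (standard error 0.04, edgeR adjusted p = 0.0055). Insig1 was at 0.32 (standard error 0.10, 0.059), Srebf1 at 0.14, Insig2 at 0.06 and Scap at 0.01, and these did not pass. Scd1, Scd2 and Tm7sf2 lie on chromosome 19, whose 547 tested genes had a median batch difference of -0.12, and were themselves at 0.06, 0.11 and -0.04. On the chromosomes of the other members the median ran from -0.02 to 0.07. The 4 scramble libraries alone (2 against 2) gave 14 members higher (against 14.7% of all genes in that fit) and 0 lower (against 12.6%). Alpha cell markers also moved with batch: their summed level was 4609.8 to 4905 CPM in batch 1 and 11587 to 12882 CPM in batch 2, mostly through Gcg, the glucagon gene, whose log2 difference was 2.80 ± 0.04. Summed immune markers were at 1.91 to 2.06 CPM in batch 1 and 2.65 to 3.16 CPM in batch 2. Summed fibroblast markers were at 18.6 to 27.0 CPM in batch 1 and 19.3 to 21 CPM in batch 2, and 1 of them, Pdgfra, had a log2 difference of -1.12 ± 0.10 without overlap (269 to 406 counts in batch 1 and 151 to 207 in batch 2). The part of any of these in the difference of the sterol genes was not tested.

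**Figure D4:**
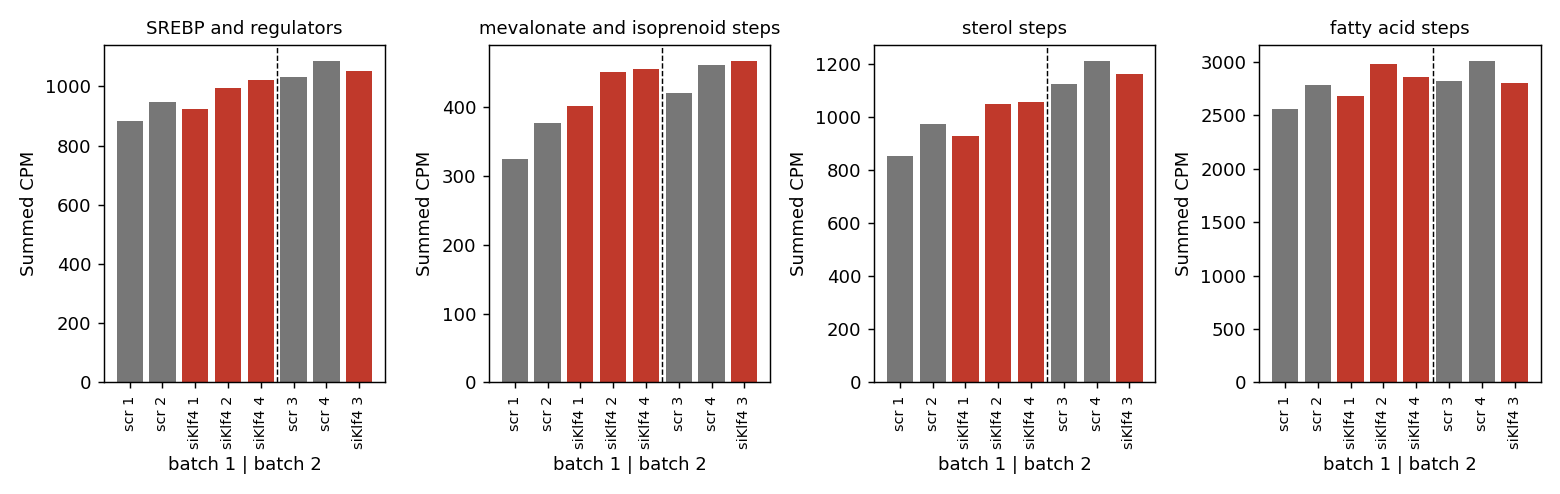
Summed CPM (vertical axes, from 0) of the genes of 4 roles in each library, with scramble (scr) in grey, Klf4 siRNA (siKlf4) in red and a dashed line between batch 1 and batch 2. The mevalonate sum runs from 324 CPM in scramble replicate 1 to 467 CPM in Klf4 siRNA replicate 3, and scramble replicate 1 is lowest in all 4 panels.

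The sums by role show how much the libraries of 1 treatment differed. The 7 mevalonate genes summed to 324, 377, 419.7 and 461 CPM in scramble replicates 1 to 4 and to 401, 450.3, 467 and 456 CPM in Klf4 siRNA replicates 1 to 4. Within each batch the Klf4 siRNA libraries were above the scramble libraries. The 11 sterol genes summed to 851, 974, 1121 and 1211 CPM in scramble and 927, 1046, 1161 and 1054 CPM in Klf4 siRNA replicates 1 to 4, and here the treatments overlapped within both batches. Scramble replicate 1 was lowest for both sums.

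Scramble replicates 1 and 2 share treatment and batch, yet 29 of the 30 genes were higher in replicate 2, Scap being the exception. The median difference was 0.16 on the log2 scale, and 0.20 for the 18 mevalonate and sterol genes, all of them higher. Over all genes tested, 51.4% were higher in replicate 2, with a median of 0.00. Of the 30, 22 exceeded 0.10, the 95th percentile of the 7844 genes with at least 20 CPM. Between treatments, the median for the same 18 genes was 0.13.

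The same held for Klf4 siRNA replicates 2 and 1 of batch 1, where 30 of 30 genes were higher in replicate 2 (median 0.14, all genes 53.1%). Klf4 siRNA replicate 4 was above replicate 1 for 25 genes (median 0.15) and above replicate 2 for 11 (median -0.01). Scramble replicate 4 was above scramble replicate 3 for 24 genes (median 0.10, all genes 50.3%). Scaled by library size alone, these 4 counts were 30, 22, 4 and 20, where 57.7%, 42.9%, 36.3% and 32.7% of all genes were higher. For scramble replicates 2 and 1 the count was then 30, where 63.3% of all genes were higher.

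After batch and treatment were fitted as additive terms, the residual standard deviation of log2 CPM (5 degrees of freedom) had a median of 0.09 over the 28 members with at least 20 CPM, against 0.045 for all 7844 such genes, and 24 of the 28 were above the latter. For all 16 such mevalonate and sterol genes it was above, at 0.07 to 0.17. Scap (0.01), Elovl6 (0.02), Fasn (0.03) and Acly (0.03) were below, and Scd2 (0.19) was the highest of the 28. Counts on mitochondrially encoded genes were 5.42% and 4.51% of scramble replicates 1 and 2 and 5.59%, 4.11% and 5.89% of Klf4 siRNA replicates 1, 2 and 4. In batch 2 they were 4.63% and 5.87% of scramble replicates 3 and 4 and 5.75% of Klf4 siRNA replicate 3. Gm42418, a gene that overlaps ribosomal RNA sequence, took 0.660% and 0.0938% of scramble replicates 1 and 2 and 0.580%, 0.461% and 0.330% of Klf4 siRNA replicates 1, 2 and 4. In batch 2 it took 0.0765% and 1.58% of scramble replicates 3 and 4 and 0.312% of Klf4 siRNA replicate 3. The part of RNA quality in these differences was not tested.

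**Figure D5:**
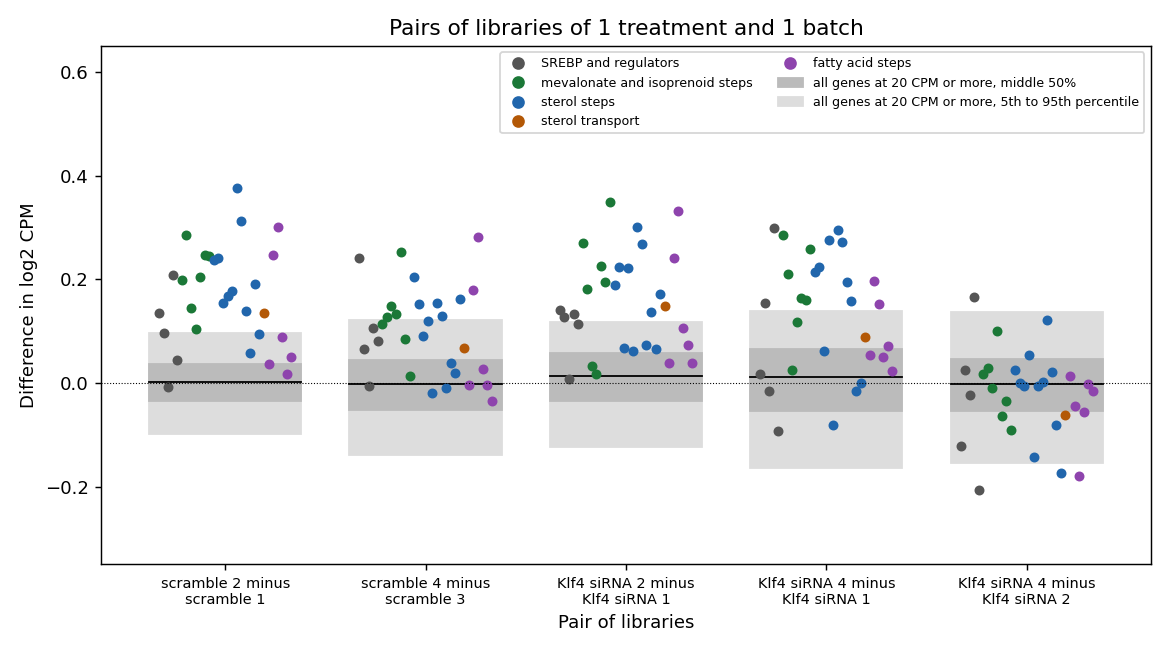
Difference in log2 CPM (vertical axis) of the 30 genes for 5 pairs of libraries of the same treatment and batch; points are genes coloured by role, and dark and light grey give the middle 50% and the 5th to 95th percentile of the 7844 genes with at least 20 CPM. In the first pair 22 of 30 genes lie above the grey range, and in the last pair 1 does.

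Other genes of the path came from 4 lists of 47 genes, of which 46 were tested. Over them 9 were higher (19.6%, against 4.88% of all genes) and 4 lower (8.70%, against 6.81%) at an edgeR adjusted p under 0.05, with a median log2 fold change of 0.01. The share lower was near that of all genes. Like the members, the lists were chosen with earlier results of these data known, so these shares are descriptive. For SREBP processing and turnover, 2 of 8 rose (25%, against 4.88% of all genes) and 1 fell (12.5%, against 6.81%). Mbtps1, the Golgi protease that makes the first cut in SREBPs, fell from 228, 224, 228 and 231 CPM in scramble to 205, 207, 209.6 and 209 CPM in Klf4 siRNA replicates 1 to 4. The treatments did not overlap, and the log2 change was -0.13 ± 0.03 (edgeR adjusted p = 0.0018).

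Erlin2, an endoplasmic reticulum protein, and Fbxw7, which marks nuclear SREBPs for breakdown, had log2 rises of 0.14 and 0.15 (edgeR adjusted p = 0.011 and 0.040). Fbxw7 missed the threshold in 7 of the 8 fits without a library, and its adjusted p reached 0.210 over all alternatives. Erlin2 did not pass without scramble replicate 1 or 2. Of 11 further lipid synthesis genes, 2 rose (18.2%, against 4.88% of all genes): Me1, a malic enzyme that makes NADPH, by 0.19 (standard error 0.03, edgeR adjusted p = 0.00024) and Gpam, of the first step of glycerolipid synthesis, by 0.21 (0.04, 0.0058).

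Of 11 genes of the isoprenoid branches, 2 rose (18.2%, against 4.88% of all genes). Ggps1 makes geranylgeranyl diphosphate and rose by 0.13 (edgeR adjusted p = 0.019), but did not pass when scramble replicate 1 or 2, or Klf4 siRNA replicate 3, was left out. Pggt1b, a subunit of the enzyme that attaches this group to proteins, rose by 0.10 (edgeR adjusted p = 0.044) and passed in 1 of the 8 fits without a library.

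Of 17 genes of sterol transport, storage and the sterol-sensing LXR receptors, 16 were tested; 3 rose (18.8%, against 4.88% of all genes) and 3 fell (18.8%, against 6.81%). Nceh1, a cholesterol ester hydrolase gene, fell most, from 109, 113, 126 and 119.8 CPM in scramble to 83.9, 88.5, 96.6 and 84.9 CPM in Klf4 siRNA replicates 1 to 4. No Klf4 siRNA library reached a scramble library, and the log2 change was -0.36 ± 0.03 (edgeR adjusted p = 7.7e-08). Soat1, whose product stores cholesterol as ester, fell by 0.14 (edgeR adjusted p = 0.0026). Osbp, an oxysterol-binding exchange protein, and Lrp8, a lipoprotein receptor family member, rose by 0.13 and 0.10 (edgeR adjusted p = 0.0077 and 0.011). Without scramble replicate 1 neither rise passed, and that of Lrp8 also failed without scramble replicate 2 or Klf4 siRNA replicate 3. Of the genes named from these lists, Mbtps1, Me1 and Nceh1 also passed without batch in the fit; Soat1 (adjusted p = 0.155), Gpam (0.300), Erlin2, Fbxw7, Ggps1, Pggt1b, Osbp and Lrp8 did not.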

How the data were processed

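Poly(A) RNA of 8 libraries was measured. The authors deposited whole-number counts per gene, not normalized. Per the submitters' processing notes, FastQC, STAR, featureCounts and DESeq2 were used with build mm10, without versions, and the table's name speaks of cutadapt trimming. Use of strand and handling of shared reads are not given in the sources used here. No count lay in a row without a gene. Gene positions and exons came from GENCODE M21 (GRCm38, the same assembly as mm10).

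The 30 members and all lists were chosen with earlier results of these data known. From them, values in every library were given for members past the threshold and for the 5 regulators, the batch section named the 6 smallest adjusted p-values, and each list named at most 4 genes past the threshold. Other members were added after their values were seen. Genes were filtered with filterByExpr (16333 kept) and scaled by TMM. edgeR 4.0.16 (R 4.3.3) fitted batch and treatment with a robust quasi-likelihood test, two-sided, Benjamini-Hochberg adjusted over all tested genes at 0.05, after the design text's mention of edgeR with batch correction. Each standard error was taken as the size of the log2 change divided by the root of F. CPM uses TMM-scaled sizes, and log2 CPM a prior count of 2. The script was tested on simulated counts. Treatment of PCR duplicates is not given in the sources used here, and errors are spreads between libraries. Alternatives were other designs, scalings, filters, tools (DESeq2 1.42.0, limma 3.58.1) and each library left out. Some marker genes are not reported here.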

Additional observations from a re-analysis of the deposited data

Results flagged for a closer look

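Of 60 groups of 4 libraries (30 genes, 2 treatments), 3 had a library far from the rest, taken as a gap to the nearest library above 0.829 of the group's range. Chance passes about 1 in 20 groups of like libraries, but each group here mixes batches, with 1 Klf4 siRNA library in batch 2, and the genes move together, so that rate is only a rough guide. Hmgcs1 in Klf4 siRNA replicate 1 was lowest at 176 CPM, with the others at 200 to 204 CPM (gap 0.854). Sc5d in scramble replicate 1 was lowest at 30.3 CPM, with the others at 34.5 to 35 CPM (gap 0.900). Elovl6 in Klf4 siRNA replicate 3, of batch 2, was highest at 184 CPM, with the others at 149 to 153 CPM (gap 0.886).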

How the results depend on the processing

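Members higher and lower after Klf4 siRNA numbered 4 and 0, and 1909 of all genes passed. Without the batch term they were 0 and 0 with 409 genes, in batch 1 alone 5 and 0 with 1232, with the DESeq2 Wald test 9 and 1 with 1832, without a filter 8 and 1 (Srebf1) with 1961, and at a mean of at least 5 CPM 4 and 1 with 2010. Deviations of libraries numbered 1 to 4 correlated at 0.49, 0.42, 0.72 and -0.34, and after removing batch, which numbers 1 to 3 share and number 4 does not, at -0.00053, -0.04, -0.30 and 0.12. The labels give the numbers no shared source, so they were not taken as pairs. With a replicate block in place of batch, 2 members were higher (Insig1 and Hmgcs1; adjusted p was 0.0535 for Mvk, 0.263 for Lss, 0.0576 for Hsd17b7 and 0.155 for Sc5d), 0 were lower, and 1220 genes passed. A replicate block on replicates 1 to 3, added after seeing the data, gave 13 higher (10 of them mevalonate or sterol genes), 3 lower and 3083 genes. Leaving out 1 library gave 2 to 6 members higher, 0 to 1 lower and 934 to 2021 genes; the median of the members ran from -0.01 (-0.007, without scramble replicate 1) to 0.10. DESeq2 size factors and limma-voom kept all 4 calls, and library size alone, also added, kept 3. For batch, scramble libraries alone gave 0 members lower, and leaving out 1 library gave 10 to 13 higher and 0 to 1 lower. The cause of these moves was not tested. The interaction could not be fitted without Klf4 siRNA replicate 3. Fdps had the fewest counts of the members, 261 to 536 in a library, and batch 2 held 1 Klf4 siRNA library, which limits what could be detected there.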
